A study of Caenorhabditis elegans with 32 samples.

Results

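The comparison described here asked how the transcriptional response to excess glucose changed when HLH-30 was lost. It used 16 of the 32 libraries and 4 of the 8 groups of the series, those of WT (N2 Bristol) and of *hlh-30(tm1978)* animals, each grown on normal growth medium (NGM) or on NGM with 2% glucose. Each group had 4 replicates, which the study's methods call biological replicates. RNA came from whole, synchronized animals that the labels stage as L4/young adult and the methods as young adult, fed on *E. coli* OP50. The *tm1978* allele is a deletion that removes part of *hlh-30* in every cell, so the comparison does not tell apart the tissues in which the factor acts. The labels give no transgene for these animals, and the groups that overexpress *pgph-2* were not used. For each gene, the glucose response is the log2 fold change of glucose over NGM. The interaction is the response of *hlh-30* minus the response of WT. It lies above 0 where glucose moved a gene more upwards, or less downwards, in *hlh-30* than in WT.

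HLH-30 is the worm homolog of mammalian TFEB, a basic helix-loop-helix leucine zipper factor. It is held in the cytoplasm in fed animals and enters the nucleus on starvation, infection and other stresses, where it binds E-box sequences near genes of lysosomes, autophagy and lipid breakdown. The heat shock genes named below encode chaperones that hold or refold damaged proteins, and in worms the inducible ones, the *hsp-16* family and *hsp-70*, are classical targets of the heat shock factor HSF-1. Whole animals mix all tissues, so for any gene fewer cells of a type and less RNA per cell cannot be told apart.

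The 16 libraries held 16750042 to 29794842 counts (median 19522377), of which ribosomal RNA genes took 5.47% to 8.03%. Markers of intestine, muscle, pharynx, neurons and hypodermis were detected in all groups. The *hlh-30* gene itself (chromosome IV, 4015615 to 4019039, minus strand) was read at 88.4, 96.4, 103 and 105 CPM (the count of a gene scaled to the library's size) in WT on NGM and at 118, 89, 110 and 103 CPM in WT on glucose. In the mutant it was read at 51.5, 60.0, 50.1 and 51.8 CPM on NGM and at 71.9, 79.9, 59.0 and 71.4 CPM on glucose. All 8 mutant libraries lay below all 8 WT libraries, and the reads that remained are counted over the whole gene. The interaction of *hlh-30* was 0.31 (SE 0.14, adjusted *P* = 0.21).

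Sperm transcripts set some libraries apart before any test. The mean log2 CPM of the 52 tested of 55 sperm genes, among them major sperm proteins, was 3.91 to 4.75 in WT on NGM. It was 4.42 to 5.51 in WT on glucose. In *hlh-30* on NGM it was 3.22, 3.15 and 3.40 in replicates 1 to 3 and 1.57 in replicate 4. In *hlh-30* on glucose it was 0.18, 1.70, 3.17 and 0.20 in replicates 1 to 4, so the range within this group exceeded the range over all 8 WT libraries. Summed over the list, sperm genes gave 1353 to 2436 CPM in WT on NGM and 1844 to 4063 CPM in WT on glucose. The sums were 296 to 1020 CPM in *hlh-30* on NGM and 87.7 to 794 CPM in *hlh-30* on glucose. The fit was therefore repeated with this sperm level as a covariate, and without the libraries *hlh-30* NGM replicate 4 and *hlh-30* glucose replicate 3. Of the 83 genes called below, 12 remained called with the covariate, and all 83 without those libraries. Leaving those out set the mutant's media further apart in sperm level, at 3.15 to 3.40 on NGM and 0.18 to 1.70 on glucose. Keeping the calls in that fit is therefore no check on sperm level. Every WT library also lay above every *hlh-30* library in sperm level, so the covariate overlaps with genotype. A call lost with it therefore cannot be assigned to sperm level.

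Few genes had an interaction that passed the test. Of 15872 genes tested, 45 were called above 0 (0.284%) and 38 below 0 (0.239%). A call needed an adjusted *P* no higher than 0.05 in edgeR's quasi-likelihood test and a log2 value of 1 or more in either direction. In the same fit, glucose raised 123 genes (0.775%) and lowered 101 (0.636%) in WT. In *hlh-30*, it raised 662 genes (4.17%) and lowered 408 (2.57%). The larger number of calls in the mutant does not by itself show that its response was larger, since the test of that difference is the interaction. The median standard error of an interaction over all genes was 0.26, against 0.18 for either response. The median interaction of all genes was 0.00. In WT, leaving out 1 library gave 53 raised genes (without WT glucose replicate 2) to 194 (without WT NGM replicate 1), and in *hlh-30* 167 lowered genes (without *hlh-30* glucose replicate 1) to 1546 (without *hlh-30* glucose replicate 3). Called interactions also depended on single libraries, as the plot of called genes with each library left out shows. The number above 0 ranged from 9 without WT glucose replicate 4 to 240 without *hlh-30* glucose replicate 3. The number below 0 ranged from 1, reached without WT glucose replicate 4 and without *hlh-30* NGM replicates 1 or 3, to 1419 without *hlh-30* glucose replicate 3.

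**Figure D1:**
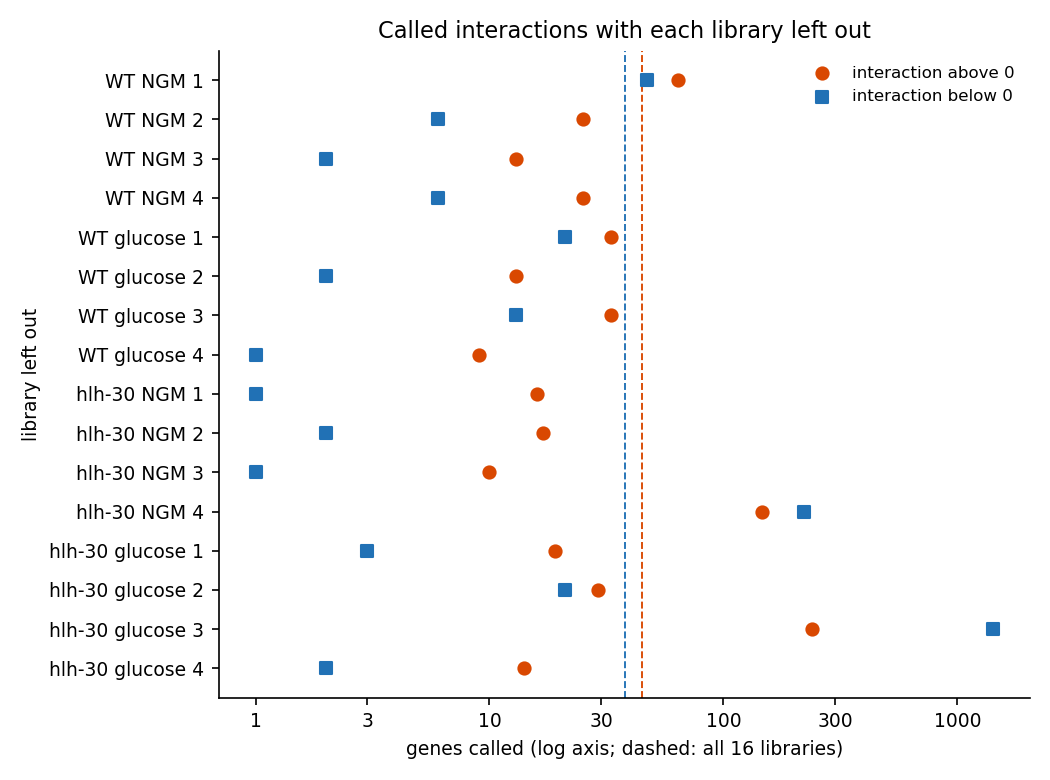
Number of genes with a called interaction when each library in turn was left out of the fit (log axis), with genes above 0 as orange circles and below 0 as blue squares. Dashed lines mark the 45 and 38 genes called with all 16 libraries, and the counts rise to 240 and 1419 without *hlh-30* glucose replicate 3.

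Most genes that responded to glucose in WT had no called interaction. Of the 123 genes raised in WT, 69 (56.1%) were also raised in *hlh-30*, 110 had the same sign there, and 3 had an interaction called against the WT change. Their median response was 1.59 in WT and 1.63 in *hlh-30*, on the log2 scale. Of the 101 genes lowered in WT, 52 (51.5%) were also lowered in *hlh-30*, 82 had the same sign, and 13 had an interaction called against the WT change. Here the median response was -1.58 in WT and -1.06 in *hlh-30*. The median standard error of the interaction was 0.52 for the 123 raised and 0.39 for the 101 lowered genes, against 0.26 over all genes. An interaction that was not called in these genes therefore does not show that the response was kept. Seen from the mutant, the 69 and 52 genes were 10.4% of the 662 raised and 12.7% of the 408 lowered. The 662 genes had a median response of 1.67 in *hlh-30* and 0.70 in WT, and the 408 had medians of -1.45 and 0.29. The 2 responses share no library, and each set was chosen by its own response, which tends to make that response the larger one.

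By these calls, 120 genes were shared (called in both genotypes in 1 direction, with no interaction called). With an interaction called, another 10 were lost (called in WT and not in *hlh-30*), 6 were reversed and 46 were gained (called in *hlh-30* and not in WT). Also with an interaction called, *hpo-15* alone was larger in *hlh-30*. A further 20 had an interaction without a called response in either genotype. For 984 genes, called in 1 genotype with no interaction called, these data do not decide whether the genotypes differed.

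**Figure D2:**
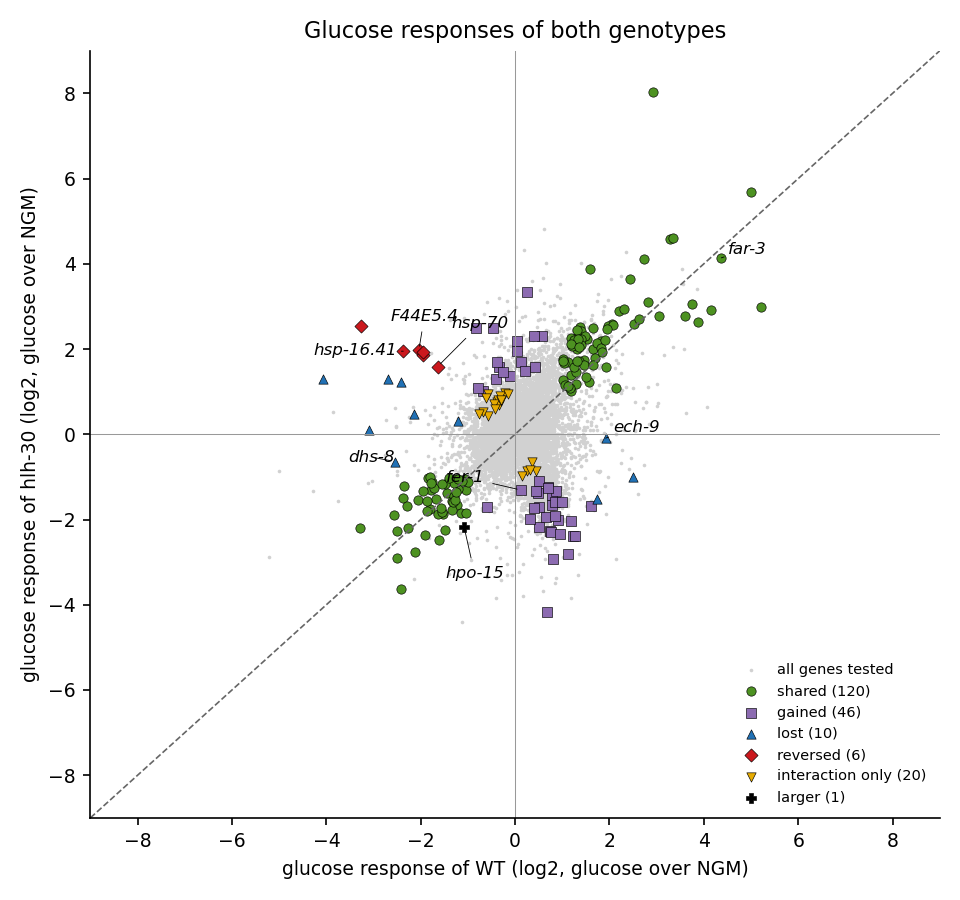
Glucose response of *hlh-30* (vertical axis) against that of WT (horizontal axis), both as log2 fold change of glucose over NGM, for all 15872 genes tested, with symbols for the classes of called genes. The shared gene *far-3* lies near the dashed line of equal response, and other shared genes, such as *W06D12.8*, lie off it. All 6 reversed genes, heat shock genes among them, lie at the upper left.

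Among the 16 responses of WT that were lost or reversed, 8 belonged to heat shock genes. Of these, 6 were on the fixed list of heat shock genes, which held 22 of the 15872 genes tested. All 8 fell on glucose in WT. In *hlh-30* they were low on NGM, and 5 of them rose on glucose. *hsp-16.2*, *hsp-16.41*, *hsp-70*, *F44E5.4* and *F44E5.5* were reversed, and *hsp-16.1*, *hsp-16.11* and *hsp-16.49* were lost. *F44E5.4* and *F44E5.5* stood outside the fixed list of heat shock genes and were counted with it after their values were seen, because the deposited annotation places both in the HSP70 family, as it does *hsp-70*. The other 4 tested genes of that family outside the list, *F11F1.1* (0.25, SE 0.25), *T14G8.3* (0.30, SE 0.13), *T24H7.2* (-0.13, SE 0.09) and *stc-1* (0.02, SE 0.07), had no called interaction.

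*hsp-16.2* encodes a small heat shock protein widely used as a reporter of stress (chromosome V, 1804334 to 1804971, minus strand). Its levels were 13.8, 18, 55.3 and 23.8 CPM in WT on NGM and 6.52, 5.05, 8.75 and 8.23 CPM in WT on glucose. The *hlh-30* libraries gave 5.79, 6.05, 6.75 and 7.22 CPM on NGM and 10.5, 33.7, 42.2 and 11.6 CPM on glucose. The groups on the 2 media did not overlap in either genotype, and they were ordered in opposite directions. Its response was -1.96 (SE 0.47, adjusted *P* = 0.0248) in WT and 1.92 (SE 0.47, adjusted *P* = 0.0118) in *hlh-30*. The interaction was 3.89 (SE 0.67, adjusted *P* = 0.0188).

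*hsp-16.41*, a small heat shock protein gene that lies head to head with *hsp-16.2* (chromosome V, 1805233 to 1805875, plus strand), moved with it. It had levels of 16, 21.2, 54.5 and 25.6 CPM in WT on NGM and 5.11, 3.40, 6.57 and 7.64 CPM in WT on glucose. Levels in *hlh-30* were 6.68, 3.73, 3.79 and 7.88 CPM on NGM and 7.23, 33.3, 34.2 and 10.6 CPM on glucose. WT groups did not overlap, while in *hlh-30* the lowest glucose library lay below the highest NGM library. Its response was -2.37 (SE 0.51) in WT and 1.95 (SE 0.51) in *hlh-30*, and its interaction 4.32 (SE 0.72, adjusted *P* = 0.0165).

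*hsp-70*, the inducible cytosolic HSP70 gene also known as *C12C8.1* (chromosome I, 9320361 to 9322511, minus strand), was read at 46.3, 53.1, 102 and 43.2 CPM in WT on NGM and at 15.2, 18.5, 19.8 and 25 CPM in WT on glucose. Mutant libraries gave 16.7, 12.2, 14.2 and 17.7 CPM on NGM and 21.8, 57.5, 79.5 and 24.5 CPM on glucose. No library of the lower medium reached the higher one in either genotype. Its response was -1.64 (SE 0.37, adjusted *P* = 0.0186) in WT and 1.59 (SE 0.38, adjusted *P* = 0.0098) in *hlh-30*. The interaction was 3.23 (SE 0.53, adjusted *P* = 0.0165).

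*F44E5.4* and *F44E5.5* are neighbouring HSP70 family genes on chromosome II (11757106 to 11759311, minus strand, and 11759681 to 11761852, plus strand). *F44E5.4* was read at 10, 13.3, 34.1 and 13.2 CPM in WT on NGM and at 4.43, 3.30, 3.39 and 6.12 CPM in WT on glucose. The mutant had 5.74, 2.72, 3.94 and 5.85 CPM on NGM and 10.7, 24.0, 23.8 and 13.3 CPM on glucose. The media did not overlap in either genotype, and the interaction was 4.01 (SE 0.57, adjusted *P* = 0.00616). *F44E5.5* was read at 13.7 to 44.7 CPM in WT on NGM and at 5.57 to 6.44 CPM in WT on glucose. Its levels were 3.51 to 9.49 CPM in *hlh-30* on NGM and 13.7 to 33.8 CPM in *hlh-30* on glucose. The media again did not overlap, and the interaction of *F44E5.5* was 3.82 (SE 0.55, adjusted *P* = 0.00668). The 2 genes are near-identical copies whose reads the counting could split, so they are not 2 independent measurements.

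**Figure D3:**
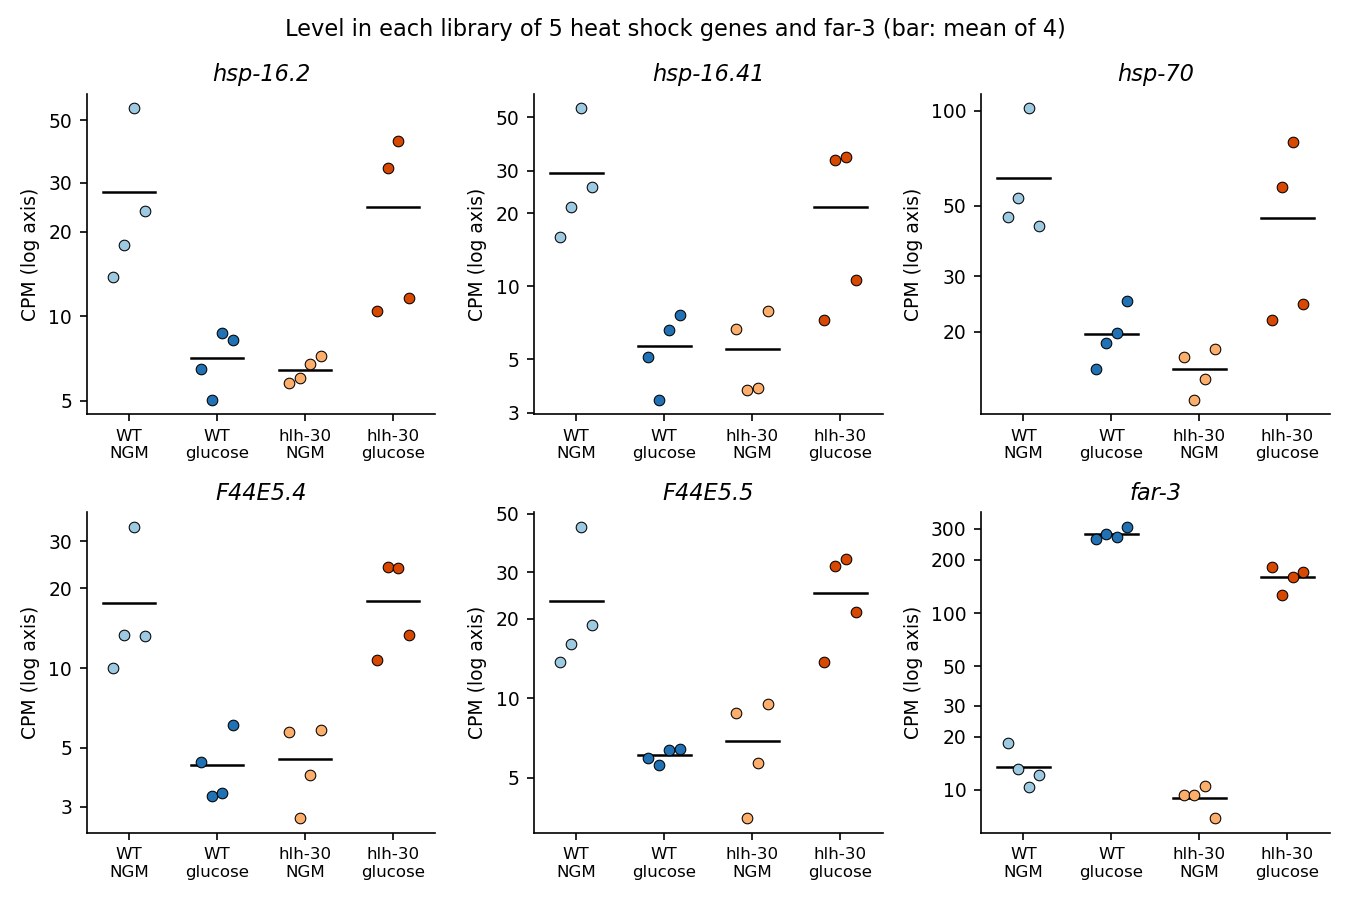
Level in CPM (log axis) of *hsp-16.2*, *hsp-16.41*, *hsp-70*, *F44E5.4*, *F44E5.5* and, for contrast, the shared gene *far-3* in each of the 16 libraries, with 1 point per library in the order of its replicate number and a bar at the arithmetic mean of 4. In the 5 heat shock genes, the means of WT on NGM and *hlh-30* on glucose are high and those of the other 2 groups low. Single libraries of *hlh-30* on glucose overlap the low groups in *hsp-70* and *hsp-16.41*. The gene *far-3* is high on glucose in both genotypes.

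The 4 genes of the second *hsp-16* cluster on chromosome V (from 9087293 to 9090604) had few counts, and near-identical copies in it make the split of reads uncertain. *hsp-16.1* was read at 1.06 to 2.41 CPM in WT on NGM and 0.142 to 0.379 CPM in WT on glucose, with an interaction of 3.66 (SE 0.68, adjusted *P* = 0.0216). *hsp-16.49* was read at 1.34 to 4.04 CPM in WT on NGM and 0.189 to 0.530 CPM in WT on glucose, with an interaction of 3.99 (SE 0.76, adjusted *P* = 0.0255). The response of *hlh-30* was 1.23 (SE 0.46) for *hsp-16.1* and 1.30 (SE 0.52) for *hsp-16.49*, and neither passed the test. *hsp-16.11* was read at 1.06, 1.55, 4.39 and 20.6 CPM in WT on NGM, so that 1 library held most of its signal. Its interaction of 5.37 (SE 1.26, adjusted *P* = 0.0486) was called in 3 of the 16 fits that left out 1 library. *hsp-16.48* had an interaction of 2.49 (SE 0.69, adjusted *P* = 0.0808), which was not called.

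Seen between genotypes, the same libraries placed these genes lower in *hlh-30* than in WT on NGM and higher on glucose. On NGM, where 205 genes (1.29%) were called higher and 711 (4.48%) lower in *hlh-30*, the difference was -2.11 (SE 0.47) for *hsp-16.2*, -2.41 (SE 0.51) for *hsp-16.41* and -2.01 (SE 0.38) for *hsp-70*. On glucose, where 943 genes (5.94%) were called higher and 2460 (15.5%) lower, it was 1.78 (SE 0.47), 1.91 (SE 0.51) and 1.22 (SE 0.37). All 6 differences passed the test.

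The rest of the heat shock list had mostly smaller interactions in the same direction. The counts, median and list means given next are of the whole list, with its 6 called members included. The list has 24 members, of which 22 were tested and 20 had an interaction above 0. At the adjusted *P* alone, which calls 132 genes above 0 (0.832%), 12 members of the list were above 0, and 0 were among the 98 genes (0.617%) below. The median interaction of the list was 0.74, against 0.00 over all genes. The list mean in log2 CPM was 5.37 to 6.03 in WT on NGM, 4.79 to 5.17 in WT on glucose, 4.82 to 5.22 in *hlh-30* on NGM and 5.34 to 6.01 in *hlh-30* on glucose.

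*hsp-90*, the cytosolic HSP90 also called *daf-21*, was read at 2050 to 2390 CPM in WT on NGM and 1580 to 1760 CPM in WT on glucose. The *hlh-30* libraries gave 1900 to 2290 CPM on NGM and 2470 to 2840 CPM on glucose. These levels did not overlap between media in either genotype. Its interaction was 0.76 (SE 0.09, adjusted *P* = 0.00235), with the smallest adjusted *P* of the list beside *hsp-17*. The small heat shock protein gene *hsp-17* was read at 63.5 to 67.1 CPM in WT on NGM, 59.4 to 67.9 CPM in WT on glucose and 60.0 to 64.3 CPM in *hlh-30* on NGM. It reached 87.7 to 104 CPM in *hlh-30* on glucose, above all other libraries, and had an interaction of 0.72 (SE 0.09, adjusted *P* = 0.00235). *hsp-4*, the BiP chaperone of the endoplasmic reticulum, had an interaction of 0.79 (SE 0.14, adjusted *P* = 0.0188). Its response was 0.02 (SE 0.10) in WT and 0.81 (SE 0.10) in *hlh-30*. *hsp-110*, a nucleotide exchange factor for HSP70, had an interaction of 0.73 (SE 0.14), *hsp-43* of 0.88 (SE 0.19) and *hsp-1*, the constitutive HSP70, of 0.44 (SE 0.08). The mitochondrial chaperones *hsp-6* (0.25, SE 0.12) and *hsp-60* (0.22, SE 0.12) did not pass the test. *hsp-12.3* was shared, with a response of 1.32 (SE 0.27) in WT and 2.00 (SE 0.28) in *hlh-30*. The transcript of *hsf-1*, the gene of the heat shock factor, had an interaction of 0.12 (SE 0.17, adjusted *P* = 0.703). With the sperm covariate, 7 of the 12 members kept an adjusted *P* within the threshold. They were 5 of the called members, *hsp-90* (0.0066) and *hsp-17* (0.00907). *hsp-4* (0.60, adjusted *P* = 0.141), *hsp-43* (0.73, adjusted *P* = 0.241), *hsp-1* (0.29, adjusted *P* = 0.141) and *hsp-110* (0.79, adjusted *P* = 0.0655) did not.

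**Figure D4:**
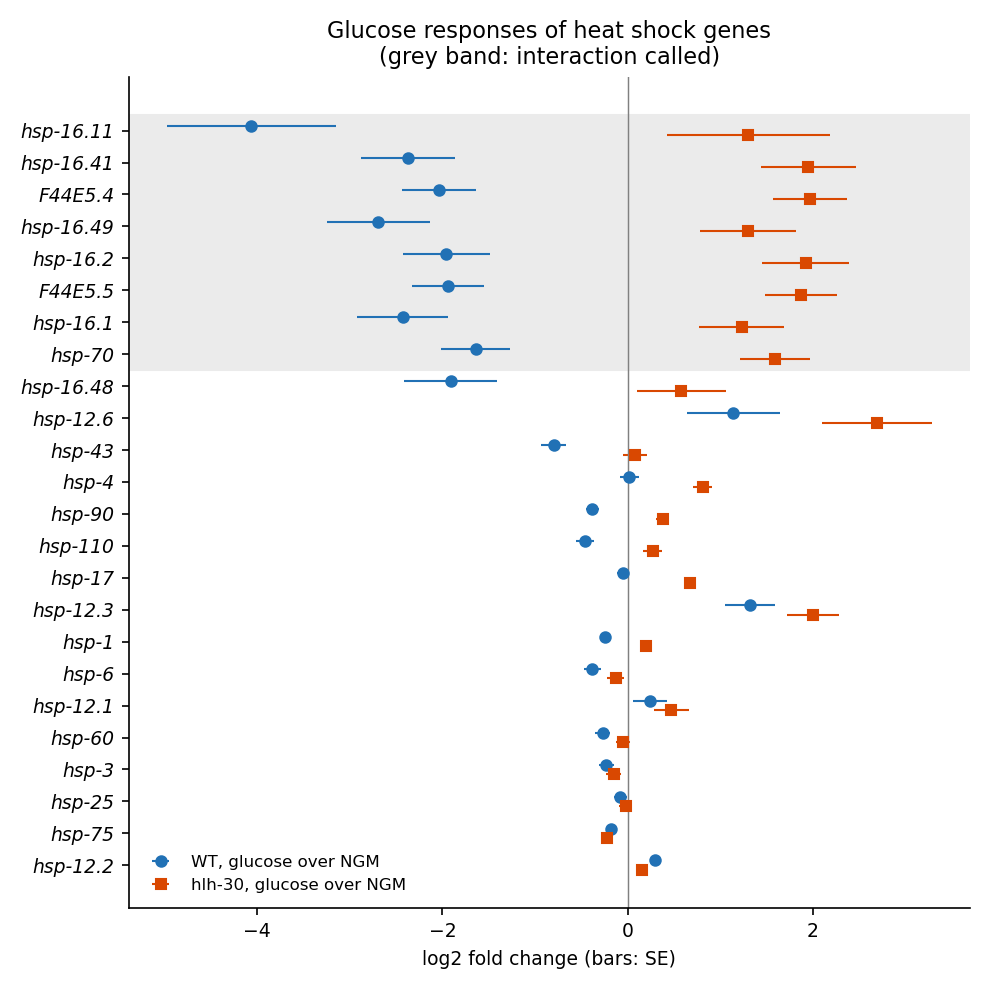
Glucose response of WT (blue circles) and of *hlh-30* (orange squares), as log2 fold change of glucose over NGM with its standard error, for the 22 tested members of the heat shock list and for *F44E5.4* and *F44E5.5*, ordered by interaction. Grey marks the 8 genes whose interaction was called, and *hsp-12.3* and *hsp-12.6* lie above 1 in both genotypes.

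The calls of the heat shock genes held under most settings, but some depended on single libraries. Of the 6 called members of the list, 1 remained called without *hlh-30* NGM replicate 3 and 2 without WT glucose replicate 4. *hsp-70*, *F44E5.4* and *F44E5.5* were called in all 16 fits that left out 1 library. *hsp-16.41* was called in 15, and its adjusted *P* reached 0.05 without *hlh-30* NGM replicate 3 (interaction 4.18). *hsp-16.2* was called in 14, with an adjusted *P* of 0.0504 without WT glucose replicate 4 (3.96) and of 0.0503 without *hlh-30* NGM replicate 3 (3.91). *hsp-16.1* was called in 11 of these fits and *hsp-16.49* in 10. With the sperm level as a covariate, the interaction was 3.90 for *hsp-70* (adjusted *P* = 0.00335), 4.56 for *hsp-16.2* (adjusted *P* = 0.00614) and 4.86 for *hsp-16.41* (adjusted *P* = 0.00777). *F44E5.4* (4.34), *F44E5.5* (4.06), *hsp-16.49* (4.63) and *hsp-16.1* (4.08) also remained called, and *hsp-16.11* did not (5.63, adjusted *P* = 0.175). Within *hlh-30* on glucose, the heat shock list stood at 5.88 and 6.01 in replicates 2 and 3, which had the higher sperm levels of 1.70 and 3.17. It stood at 5.34 and 5.51 in replicates 1 and 4, with sperm levels of 0.18 and 0.20. The part of stage or brood in these levels was not tested.

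**Figure D5:**
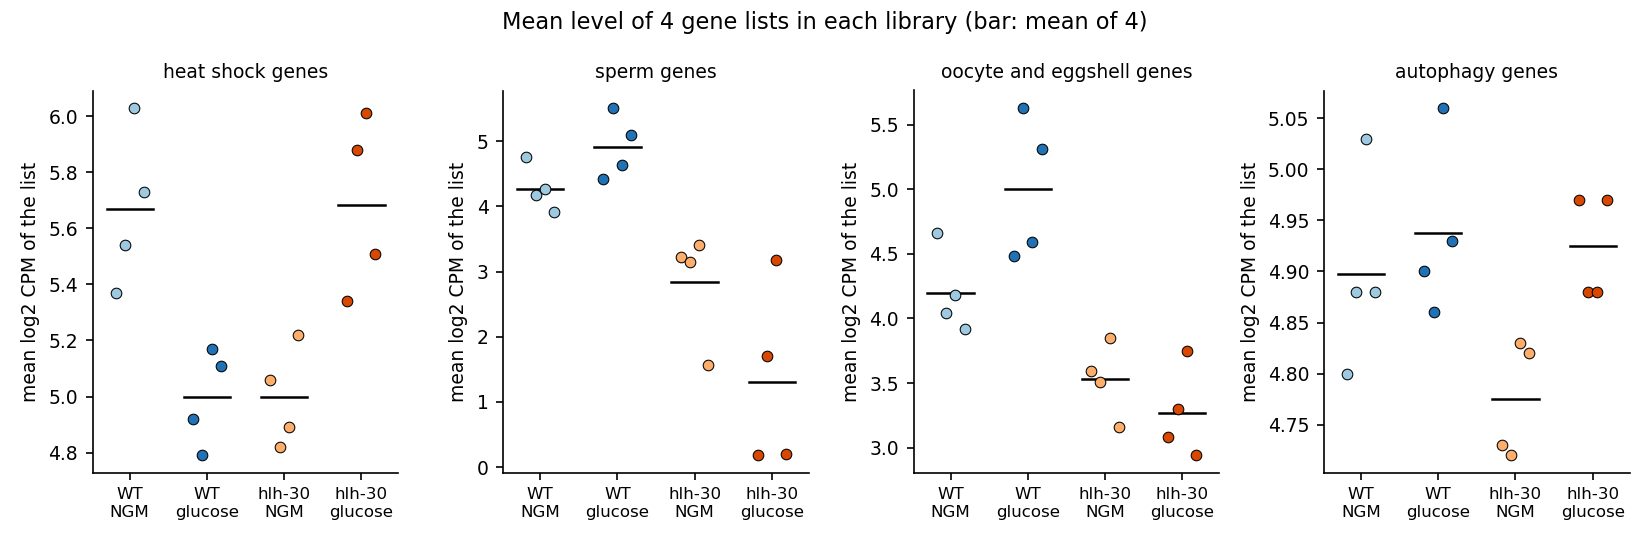
Mean log2 CPM of the heat shock, sperm, oocyte and eggshell, and autophagy lists in each of the 16 libraries, with 1 point per library, a bar at the mean of 4 and a vertical scale of its own in each panel. The heat shock list is low in WT on glucose and in *hlh-30* on NGM, the sperm list spreads from 0.18 to 3.17 within *hlh-30* on glucose, and the autophagy list stays between 4.72 and 5.06.

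Other WT responses that were lost in *hlh-30* concerned single genes of metabolism and regulation. *dhs-8*, which the deposited annotation places among short-chain dehydrogenases, was read at 9.79, 10.8, 15.4 and 12.1 CPM in WT on NGM and at 2.29, 1.23, 2.12 and 2.65 CPM in WT on glucose. Levels in *hlh-30* were 7.48, 6.34, 8.30 and 5.91 CPM on NGM and 2.68, 5.15, 6.55 and 3.67 CPM on glucose. The media were far apart in WT and overlapped in *hlh-30*. Its response was -2.54 (SE 0.28, adjusted *P* = 6.65e-05) in WT and -0.64 (SE 0.27, adjusted *P* = 0.105) in *hlh-30*, and the interaction 1.90 (SE 0.38, adjusted *P* = 0.0294). With the sperm level as a covariate it was 2.39 (adjusted *P* = 0.0109).

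*nhr-17*, a nuclear hormone receptor gene, was read at 19.5, 24.0, 40.6 and 38.3 CPM in WT on NGM and at 13, 10.1, 16.6 and 13.1 CPM in WT on glucose. Mutant libraries gave 11.1, 8.49, 11.4 and 13.3 CPM on NGM and 14.6, 14, 11.8 and 14.3 CPM on glucose. WT on NGM lay above all other libraries, and the interaction was 1.52 (SE 0.31, adjusted *P* = 0.0299). *nhr-235*, of the same superfamily, was read at 1.40 to 4.83 CPM in WT on NGM and at 0.0542 to 0.678 CPM in WT on glucose. It had levels of 1.53 to 1.75 CPM in *hlh-30* on NGM and 1.07 to 2.41 CPM on glucose, with an interaction of 3.20 (SE 0.67, adjusted *P* = 0.0341). *nhr-61* had an interaction of 1.09 (SE 0.25, adjusted *P* = 0.0431) with no response called in either genotype. These were the 3 called above 0 of 200 nuclear hormone receptor genes tested, against 0.284% of all genes, and their list had a median interaction of 0.18.

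Of the 3 WT rises that were lost, 1 had a mean of at least 5 CPM. This was *ech-9*, which belongs to the 3-hydroxyacyl-CoA dehydrogenase family, enzymes of fatty acid beta-oxidation. Its levels were 1.46, 1.94, 3.05 and 3.30 CPM in WT on NGM and 11.2, 7.93, 10.7 and 7.15 CPM in WT on glucose. The mutant had 4.16, 6.17, 3.53 and 4.30 CPM on NGM and 3.67, 5.93, 4.90 and 2.47 CPM on glucose. WT on glucose lay above all other libraries, and the mutant groups overlapped. Its response was 1.92 (SE 0.30, adjusted *P* = 0.00142) in WT and -0.09 (SE 0.30) in *hlh-30*, and the interaction -2.02 (SE 0.42, adjusted *P* = 0.0341). *ilys-3*, an invertebrate-type lysozyme, rose from 0.0791 to 0.203 CPM in WT on NGM to 0.519 to 1.22 CPM on glucose, on 2 to 5 and 11 to 23 counts. In *hlh-30* it was read at 0.340 to 0.743 CPM on NGM and at 0.146 to 0.486 CPM on glucose. On NGM it already stood higher in *hlh-30* than in WT, by 2.14 (SE 0.47). Its interaction was -3.49 (SE 0.64, adjusted *P* = 0.0216). Leaving out 1 library kept *ilys-3* called in 10 of 16 fits, *nhr-235* in 7 and *dhs-8*, *nhr-17* and *ech-9* in 5 each. The highest adjusted *P* of *dhs-8* was 0.0739, without WT NGM replicate 3, and that of *ech-9* 0.0800, without *hlh-30* glucose replicate 1. *nhr-17* reached 0.0841 without WT glucose replicate 4. With the sperm covariate, *dhs-8* alone of these remained called. The interaction was then 1.13 (adjusted *P* = 0.243) for *nhr-17*, 2.47 (0.252) for *nhr-235*, 0.98 (0.246) for *nhr-61*, -1.86 (0.165) for *ech-9* and -3.39 (0.124) for *ilys-3*.

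*MTCE.4*, a gene of the mitochondrial genome (549 to 783, plus strand), was the remaining reversed gene. It had levels of 2.32, 1.99, 1.19 and 2.80 CPM in WT on NGM and 0.521, 0, 0 and 0.325 CPM in WT on glucose. The *hlh-30* libraries gave 0.0990, 0.113, 0.156 and 0.418 CPM on NGM and 2.51, 0.340, 0.534 and 1.08 CPM on glucose. The interaction of 5.81 (SE 1.16, adjusted *P* = 0.0294) rests on at most 10 counts per library in WT on glucose, and 6 of 16 fits without 1 library kept it (adjusted *P* up to 0.0723, without *hlh-30* glucose replicate 1). It was 4.08 (adjusted *P* = 0.229) with the sperm covariate. The other 11 mitochondrial genome transcripts tested had no call.

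Genes that gained a response in *hlh-30* included 17 that rose and 29 that fell. *R02E4.3* (chromosome X, 4101702 to 4102125) was read at 11.7 to 28.9 CPM in WT on NGM and 22.1 to 34.5 CPM in WT on glucose. Its levels were 2.21 to 2.87 CPM in *hlh-30* on NGM and 10.1 to 15 CPM in *hlh-30* on glucose. Its interaction was 1.91 (SE 0.34, adjusted *P* = 0.0204). *F41F3.8* was also lowest in *hlh-30* on NGM, at 1.58 to 3.34 CPM in *hlh-30* on NGM and 7.96 to 16.5 CPM on glucose, against 7.42 to 14.6 and 10.7 to 19.9 CPM in WT. Its interaction was 1.75 (SE 0.40, adjusted *P* = 0.0438). Both genes stood lower in *hlh-30* than in WT on NGM, by -2.99 (SE 0.26) and -2.07 (SE 0.30). The C-type lectin gene *clec-138* was read at 0 to 1 counts per library in *hlh-30* on NGM and at 4 to 12 counts on glucose, against 59 to 104 counts in WT on either medium. Its level in *hlh-30* on glucose, 0.241 to 0.408 CPM, stayed below the 2.65 to 5.42 CPM of WT. *nlp-34*, of the neuropeptide-like and antimicrobial peptide genes, was read at 0.396 to 1.79 CPM in *hlh-30* on NGM and 3.98 to 5.94 CPM on glucose. Its interaction was 2.14 (SE 0.49, adjusted *P* = 0.0443). Fits without 1 library kept *R02E4.3* called in 13 of 16 cases, *clec-138* in 6 and *F41F3.8* and *nlp-34* in 2 each. The highest adjusted *P* was 0.0573 for *R02E4.3* and 0.0995 for *F41F3.8*, both without *hlh-30* NGM replicate 3. With the sperm covariate none of these 4 was called, at adjusted *P* values of 0.103 for *R02E4.3*, 0.227 for *clec-138*, 0.275 for *F41F3.8* and 0.256 for *nlp-34*, and 2 of the 17 gained rises remained.

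The cuticle collagen genes *col-41* and *col-54* rose on glucose in *hlh-30*. *col-41* was read at 80.6, 70.6, 54.6 and 204 CPM in *hlh-30* on NGM and at 844, 385, 213 and 870 CPM on glucose, against 19.6 to 92.2 CPM over the 8 WT libraries. Within both mutant groups, the libraries highest in *col-41* were those lowest in sperm transcripts. Its interaction was 3.32 (SE 0.74, adjusted *P* = 0.0420), and 1.61 (adjusted *P* = 0.203) with the sperm level as a covariate. *col-54* had an interaction of 2.95 (SE 0.67, adjusted *P* = 0.0438), and 1.45 (adjusted *P* = 0.28) with that covariate. Each was called in 3 of 16 fits without 1 library, and the adjusted *P* reached 0.0974 and 0.108 without WT NGM replicate 3. *col-101* was called below 0 (-1.30, SE 0.30) and lost the call with the covariate (adjusted *P* = 0.33). Of 143 collagen genes tested, 2 were thus above 0 (0.284% of all genes) and 1 below (0.239%), with a list median of 0.31. The 107 tested genes of molting and hedgehog-related proteins had a median of 0.46 and no called interaction. Of them, 37 were called up in *hlh-30*, where 4.17% of all genes were, and 0 in WT, where 0.775% were, a difference that the interaction test did not call for any member.

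Of the 38 genes with an interaction below 0, 29 were falls gained in *hlh-30*, and sperm genes were among those named. *fer-1*, a ferlin needed for membrane fusion in sperm, was read at 33.9 to 43.1 CPM in WT on NGM and 38.6 to 46.9 CPM in WT on glucose. Levels in *hlh-30* were 32.2, 33.5, 40.5 and 24.2 CPM on NGM and 8.59, 14.4, 21.6 and 8.24 CPM on glucose. Its interaction was -1.44 (SE 0.34, adjusted *P* = 0.0486), and -0.73 (adjusted *P* = 0.201) with the sperm level as a covariate. *spe-44*, a SAND-domain factor that drives the sperm program, had an interaction of -1.16 (SE 0.26, adjusted *P* = 0.0431), and -0.58 (adjusted *P* = 0.19) with the covariate. *F31F7.1*, *F13H8.8* and *F26H11.4* fell in *hlh-30* as well, with interactions of -1.12 (SE 0.24), -2.20 (SE 0.47) and -1.6 (SE 0.35). Fits without 1 library kept *fer-1*, *spe-44* and *F13H8.8* called in 3 of 16 cases and *F31F7.1* and *F26H11.4* in 4, with an adjusted *P* of up to 0.114 for *fer-1* without *hlh-30* NGM replicate 3. With the covariate, 0 of the 29 gained falls remained called, and their median interaction moved from -2.60 to -1.40. The covariate is a sperm transcript level of the same libraries, so sperm genes are adjusted for their own program. Without *hlh-30* NGM replicate 4 and *hlh-30* glucose replicate 3, all 29 remained called and the median was -3.17. That setting widens the difference in sperm level between the mutant's media, so it is no check on sperm level. The sperm list as a whole had a median interaction of -1.95 with 0 of 52 called. The vitellogenins, yolk proteins made in the intestine, had a median of -1.84 with 0 of 6 called. The median was -1.02 for oocyte and eggshell genes, with 0 of 24 called. The part of germline or stage in the calls below 0 was not tested.

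*hpo-15*, a gene of the amine oxidase family by the deposited annotation, fell on glucose in both genotypes and fell more in *hlh-30*. It had levels of 37.2, 28.1, 25.4 and 26 CPM in WT on NGM and 12.7, 16.7, 11.2 and 14.4 CPM in WT on glucose. Mutant libraries gave 40.8, 41.8, 37.5 and 26 CPM on NGM and 6.15, 9.47, 8.50 and 8.30 CPM on glucose. All 4 mutant libraries on glucose lay below all others. Its interaction was -1.09 (SE 0.25, adjusted *P* = 0.0443), which 4 of 16 fits without 1 library kept, and -0.60 (adjusted *P* = 0.439) with the sperm covariate. *lips-10*, a lipase-related gene, was read at 80.6 to 108 CPM in *hlh-30* on glucose and at 42.6 to 66.0 CPM in the other 12 libraries. Its interaction was 1.09 (SE 0.20, adjusted *P* = 0.0221), which 8 of 16 fits without 1 library kept, with an adjusted *P* of up to 0.0648 without WT glucose replicate 4, and 0.73 (adjusted *P* = 0.141) with the covariate.

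Lysosomal lipases, autophagy genes, V-ATPase subunits and lysosomal proteases held no called interaction, while the calls of *ilys-3*, *ech-9* and *lips-10* above fell among lysozymes, beta-oxidation genes and other lipases. Of the lysosomal lipases, 7 were tested and 0 were called, with a median of -0.33. *lipl-3*, a fasting-induced lysosomal lipase, was shared: it was read at 0.690 to 1.24 CPM in WT on NGM and 3.02 to 3.79 CPM in WT on glucose. The mutant had 0.347 to 0.571 CPM on NGM and 1.02 to 2.86 CPM on glucose. Its response was 1.85 (SE 0.30) in WT and 1.93 (SE 0.33) in *hlh-30*, with an interaction of 0.08 (SE 0.41, adjusted *P* = 0.927). The interaction was -0.33 (SE 0.17) for *lipl-5*, -0.43 (SE 0.15) for *lipl-7*, -0.40 (SE 0.38) for *lipl-6* and -0.49 (SE 0.59) for *lipl-2*. It was -0.20 for both *lipl-1* (SE 0.49) and *lipl-4* (SE 0.51), where few counts limit what could be detected. Of 27 autophagy genes, 0 were called, with a median of -0.03 and list means between 4.72 and 5.06 log2 CPM in all 16 libraries. The V-ATPase subunits (0 of 21, median 0.03) and AMPK subunits (0 of 9, median 0.00) had no call either. Of 21 lysosomal proteases (median -0.26), 0 were called, but at the adjusted *P* alone 2 were below 0, where 0.617% of all genes were. These were the aspartic protease genes *asp-6* (-0.62, SE 0.10, adjusted *P* = 0.0165) and *asp-13* (-0.84, SE 0.15, adjusted *P* = 0.0188), named after their values were seen. With the sperm covariate their adjusted *P* was 0.0681 and 0.141. The mean log2 CPM of the protease list was 7.97 to 8.17 in WT on NGM and 8.26 to 8.40 in WT on glucose, without overlap. In *hlh-30* it was 7.78 to 7.98 on NGM and 7.70 to 7.97 on glucose, with overlap.

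*pgph-2*, the glycerol-3-phosphate phosphatase gene at the centre of the study (chromosome V, 5770455 to 5771767, plus strand), had an interaction whose call depended on the tool. Its levels were 44.5, 39.8, 35.9 and 30 CPM in WT on NGM and 67.4, 77.5, 64.2 and 69.8 CPM in WT on glucose. The *hlh-30* libraries gave 30.4, 24.1, 49 and 60.6 CPM on NGM and 28.6, 34.6, 43.9 and 38.1 CPM on glucose. WT on glucose lay above all other libraries, while the mutant groups overlapped fully. Its response was 0.89 (SE 0.23, adjusted *P* = 0.0332) in WT and -0.18 (SE 0.23, adjusted *P* = 0.608) in *hlh-30*. The interaction was -1.07 (SE 0.32, adjusted *P* = 0.0935) with edgeR, not called, and -1.07 (adjusted *P* = 0.0285) with DESeq2, called. It was -1.04 (adjusted *P* = 0.338) with the sperm covariate, and of the 16 fits without 1 library 1 called it, with an adjusted *P* of up to 0.186 without *hlh-30* NGM replicate 3. Its paralog *pgph-3* had an interaction of -0.02 (SE 0.35), with a response of 0.73 in WT and 0.70 in *hlh-30*. *gpdh-2*, a glycerol-3-phosphate dehydrogenase gene, had a response of 0.56 (SE 0.06) in WT and 0.69 (SE 0.06) in *hlh-30*. The other tested genes of the glycerol list, *gpdh-1* (-0.81, SE 0.49), *gpdh-3* (-0.24, SE 0.07) and *R11F4.1* (0.61, SE 0.23), had no called interaction.

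Shared responses marked what glucose did in both genotypes. *far-3*, a fatty acid and retinol binding protein gene, was read at 10.4 to 18.4 CPM in WT on NGM and 263 to 309 CPM in WT on glucose. Levels in *hlh-30* were 6.92 to 10.5 CPM on NGM and 126 to 183 CPM on glucose. Its response was 4.37 (SE 0.18, adjusted *P* = 9.41e-10) in WT and 4.14 (SE 0.18, adjusted *P* = 1.01e-09) in *hlh-30*, and the interaction -0.23 (SE 0.23). *spp-9*, a saposin-like antimicrobial peptide gene, was read at 0 to 2 counts per library on NGM in either genotype. It was counted at 25 to 36 reads in WT and 3 to 10 in *hlh-30* on glucose. *W06D12.8* was read at 0 to 3 counts on NGM and at 6 to 24 counts on glucose in the 8 libraries of each medium. The stearoyl-CoA desaturase genes *fat-5* and *fat-7*, picked after their values were seen as the shared members of their list, had responses of 2.30 and 2.62 in WT and of 2.94 and 2.71 in *hlh-30*.

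Among the shared falls, *clec-169*, a C-type lectin gene, was read at 44.9 to 66.6 CPM in WT on NGM and 6.55 to 10 CPM in WT on glucose. Mutant libraries gave 51.6 to 71.9 CPM on NGM and 14.3 to 17.6 CPM on glucose, and the interaction was 0.66 (SE 0.21, adjusted *P* = 0.102). *C09B8.4* had responses of -3.29 (SE 0.33) in WT and -2.19 (SE 0.29) in *hlh-30*. *W01C9.2* had responses of -2.51 (SE 0.35) and -2.26 (SE 0.31). *dod-22*, *dod-24* and *irg-4*, genes of the innate immune and DAF-16 response lists picked after their values were seen, fell in both genotypes. Their responses were -1.87, -1.06 and -1.12 in WT and -1.79, -1.06 and -1.1 in *hlh-30*, with interactions of 0.08 (SE 0.35), -0.002 (SE 0.24) and 0.03 (SE 0.16).

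Across the 42 gene lists, 11 held at least 1 called gene, and the heat shock list held 6 of 22, all above 0, against 0.284% of all genes. The lists of lysozymes, beta-oxidation, other lipases, C-type lectins, antimicrobial peptides, *abu* and *pqn* genes, mitochondrial transcripts and *spe* genes held 1 each. In the *abu* and *pqn* list this was *pqn-11* (-1.77, SE 0.39), not called with the sperm covariate (-1.59, adjusted *P* = 0.246). The 60 tested genes of that list had a median interaction of 0.37. Of them, 22 were called up and 1 down in *hlh-30*, where 4.17% and 2.57% of all genes were. In WT, 2 were called up and 0 down, where 0.775% and 0.636% of all genes were. The interaction was called above 0 for 0 of the 60, also at the adjusted *P* alone. The test therefore did not call the larger number of rises in *hlh-30* a difference for any member. The remaining 31 lists held none, among them glycolysis and gluconeogenesis (0 of 24, median 0.08), trehalose and glycogen (0 of 13, median 0.11) and cytochrome P450 genes (0 of 63, median -0.17). Ribosomal protein genes had 0 of 62 called and a median of 0.19.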

How the data were processed

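Per the labels and methods, the authors selected poly-A RNA, mapped its paired-end reads to WBcel235 using Hisat2, and obtained counts per gene with featureCounts 1.5.0-p3. The deposited values are these raw counts for 46589 genes, without normalization. Use of strand and treatment of reads with several matches are not given in the sources used here. No column of values belonged to a sample outside the series. Symbols came from RefSeq locus tags (45305 genes) or transcript names (60), and positions are those of the deposited table.

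Counts were fitted in R 4.3.3 with edgeR 4.0.16 (TMM, filterByExpr with a minimum count of 10 and total of 15, quasi-likelihood F tests, 1 mean per group). All contrasts share the 16 libraries, and *P* values were adjusted by Benjamini-Hochberg across every gene tested. CPM use TMM library sizes, and log2 CPM a prior count of 2. Steps were tested on simulated data. Depth limits genes with few counts, so ranges of counts are given for them. Replicates of a group differed by more than sampling noise.

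Groups followed the labels. The members and gene lists were chosen with earlier results of these data known. Named genes were *hlh-30*, *pgph-2*, the called genes of at least 5 CPM with the largest interactions or class responses, at most 4 called members per list and direction, and the 3 largest shared responses each way. All members of the lipase, glycerol and heat shock lists could be given. The heat shock members beyond that rule, *hsf-1* and genes said to be picked later were chosen after their values were seen. Alternatives were DESeq2 1.42.0, its size factors, other filters, all 32 libraries, a replicate block, a sperm covariate, libraries left out, each response fitted on its own 8 libraries and the adjusted *P* alone. Promoter motifs were not analysed here.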

Additional observations from a re-analysis of the deposited data

Results flagged for a closer look

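In 148 groups of 4 values tested for a library far from the other 3, 10 were found, and chance gives about 1 in 20 such groups. In WT on NGM, replicate 3 was highest for *F44E5.4* at 34.1 CPM (others 10 to 13.3), *F44E5.5* at 44.7 CPM (others 13.7 to 19), *hsp-70* at 102 CPM (others 43.2 to 53.1) and *hsp-16.49* at 4.04 CPM (others 1.34 to 1.55). Without this library, 13 genes had a called interaction above 0 and 2 below. Replicate 4 of the same group was highest for *hsp-16.11* at 20.6 CPM (others 1.06 to 4.39) and for *W06D12.8* at 0.0559 CPM, a single count where the others had 0. In *hlh-30* on glucose, replicate 3 was highest for *F13H8.8* at 4.37 CPM (others 1.09 to 1.5) and lowest for *C09B8.4* at 4.47 CPM (others 6.22 to 6.51). In *hlh-30* on NGM, replicate 4 was lowest for *F26H11.4* at 4.72 CPM (others 7.23 to 7.58) and highest for *C09B8.4* at 40.9 CPM (others 21.1 to 24.3). These 2 libraries are the ones left out above for their sperm level. It was the highest of *hlh-30* on glucose in the first (3.17) and the lowest of *hlh-30* on NGM in the second (1.57).

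The glucose responses of the 2 genotypes differed by the interaction test in 45 genes above 0 and 38 below 0.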

How the results depend on the processing

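Replicate numbers recur across the groups but did not pair the libraries: deviations of same-numbered libraries correlated at -0.351 to 0.453, over 0.1 in 6 of 24 pairs. With the replicate number as a block, 23 genes were called above 0 and 7 below, all among the 83. WT rises fell to 63, and 6 genes were lost, 12 gained and 6 interaction only.

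Counts of called interactions moved between settings, and so did the calls of the heat shock list. Of its 6 called members, 6 remained called with DESeq2 and 5 with the sperm covariate. Without WT glucose replicate 4, 2 remained, and without *hlh-30* NGM replicate 3, 1 did. The interaction counts above and below 0 were 146 and 385 with DESeq2, 132 and 279 in a fit of all 32 libraries, 25 and 12 without a filter, 21 and 1 with the sperm covariate, and 132 and 98 at the adjusted *P* alone. With at least 10 counts in every library, 17 were below 0. Without *hlh-30* NGM replicate 4 and *hlh-30* glucose replicate 3, a setting chosen after seeing the data, 466 and 1671 were called, which held all 83. Leaving these 2 libraries out widened the difference in sperm level between the mutant's media. DESeq2 called 79 of the 83, and the sperm covariate kept 12. Leaving out 1 library gave 9 to 240 above 0 and 1 to 1419 below.

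For the responses, WT rises numbered 200 with DESeq2, 219 with all 32 libraries, 213 with the sperm covariate, 204 without the 2 libraries and 318 at the adjusted *P* alone, where WT falls numbered 539. Falls in *hlh-30* numbered 736 with DESeq2, 863 with all 32 libraries, 241 with the strict filter, 1714 without the 2 libraries, 108 with the covariate, 140 in a fit of their own 8 libraries and 1248 at the adjusted *P* alone, with 1659 rises. Leaving out 1 library gave 53 to 194 WT rises, 68 to 144 WT falls, 461 to 807 *hlh-30* rises and 167 to 1546 *hlh-30* falls.

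In the same order of DESeq2, all 32 libraries, covariate, 2 libraries left out and adjusted *P* alone, gained genes numbered 380, 301, 11, 1797 and 156, lost genes 27, 24, 3, 49 and 36, and genes with an interaction only 112, 77, 2, 246 and 4. The strict filter gave 22 gained and 3 lost, and no filter 17 gained and 6 interaction only. Shared genes numbered 184 with all 32 libraries and 432 at the adjusted *P* alone. Reversed genes numbered 20 without the 2 libraries and 26 at the adjusted *P* alone. Undecided genes numbered 515 with the covariate and 2640 at the adjusted *P* alone. Leaving out 1 library gave 0 to 35 lost, 2 to 9 reversed, 4 to 1428 gained, 80 to 161 shared, 1 to 177 interaction only and 611 to 1217 undecided genes. The cause of these shifts was not tested.

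No sign changed among the 83 called genes under the 24 other settings, of which the strict filter gave values for 45. Among the named genes without a call, signs changed as follows. With the covariate, the interaction was 0.04 for *lipl-5*, 0.38 for *lipl-4*, 0.08 for *pgph-3* and -0.04 for *hsp-3*. It was -0.25 for *spp-9* with DESeq2, and -0.27 for *lipl-3* and 0.16 for *pgph-3* without the 2 libraries. Leaving out 1 library gave 0 to 0.58 for *W01C9.2*, -0.46 to 0.06 for *lipl-1*, -0.51 to 0.12 for *lipl-4*, -0.22 to 0.28 for *lipl-3* and -0.21 to 0.17 for *pgph-3*.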
